A study of Mus musculus with 48 samples.

Results

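The liver mRNA levels of 8 genes of *de novo* lipogenesis were followed: *Acly*, *Acss2*, *Acaca*, *Acacb*, *Fasn*, *Elovl6*, *Scd1* and *Me1*. They were chosen by name, as the probes other than controls that carry 1 of these gene symbols in the scanner output, which gave 22 probes for 8 of the 37074 gene symbols on the array. Of these probes, 21 passed the filter on dim probes, and each gene was read by its brightest probe. The study asked what the catalytic subunit p110α of phosphoinositide 3-kinase does in hepatocytes under different diets and nutritional states. All mice were C57Bl/6J males with floxed *p110α* (*Pik3ca*) alleles. Littermates without Cre are called p110α hep+/+, and mice with 1 albumin-Cre transgene, which deletes the gene in hepatocytes and leaves it in the other cells of the liver, are called p110α hep-/-. From 12 weeks of age they ate a CTRL diet or a high-fat diet (HFD, 60% of calories from fat) for 12 weeks. They were then fed *ad libitum* or fasted for 24 h, and all were killed at zeitgeber time 16. This gave 8 groups of 6 mice, each mouse with 1 array.

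*De novo* lipogenesis builds fatty acids from carbohydrate carbon. Citrate exported from mitochondria is split to acetyl-CoA, which is carboxylated to malonyl-CoA, and fatty acid synthase joins malonyl units into palmitate, which can then be elongated and desaturated. In liver these genes are known to be induced after a meal, when insulin acts through SREBP1c and glucose through ChREBP, and to fall in fasting.

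The sequences ahead of 4 of the genes are shown, so that enzymes of acetyl-CoA supply, fatty acid synthesis and elongation can be set side by side. Each of the 4 was lower in p110α hep-/- than in p110α hep+/+ mice when fed HFD. RefSeq promoters (GRCm38.p6) were matched by symbol for 7 of the 8 genes, all but *Scd1*, in 8 windows, since *Me1* has a pair of annotated starts. The 250 bases before the start, on the strand of the gene, are given for *Fasn* (chr11:120824548-120824797, minus strand), *Acly* (chr11:100528001-100528250, minus strand), *Acss2* (chr2:155517793-155518042, plus strand) and *Elovl6* (chr3:129532136-129532385, plus strand). Capitals mark the CCAAT box and the GC box (letters GGGCGG), searched on either strand.
Fasn: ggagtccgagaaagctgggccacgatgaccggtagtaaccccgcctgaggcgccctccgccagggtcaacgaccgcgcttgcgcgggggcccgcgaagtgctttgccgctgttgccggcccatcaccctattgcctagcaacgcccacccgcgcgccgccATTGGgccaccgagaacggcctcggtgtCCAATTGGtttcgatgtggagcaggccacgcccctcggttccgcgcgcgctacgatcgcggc
Acly: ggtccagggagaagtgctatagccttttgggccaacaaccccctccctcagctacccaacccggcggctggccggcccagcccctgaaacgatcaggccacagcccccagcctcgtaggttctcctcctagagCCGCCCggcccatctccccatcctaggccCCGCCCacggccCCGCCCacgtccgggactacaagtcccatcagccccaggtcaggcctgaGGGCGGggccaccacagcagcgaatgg
Acss2: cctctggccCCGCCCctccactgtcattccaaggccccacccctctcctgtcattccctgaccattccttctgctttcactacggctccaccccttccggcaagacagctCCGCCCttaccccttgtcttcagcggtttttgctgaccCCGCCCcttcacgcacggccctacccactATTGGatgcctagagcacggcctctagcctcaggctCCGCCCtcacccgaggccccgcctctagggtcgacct
Elovl6: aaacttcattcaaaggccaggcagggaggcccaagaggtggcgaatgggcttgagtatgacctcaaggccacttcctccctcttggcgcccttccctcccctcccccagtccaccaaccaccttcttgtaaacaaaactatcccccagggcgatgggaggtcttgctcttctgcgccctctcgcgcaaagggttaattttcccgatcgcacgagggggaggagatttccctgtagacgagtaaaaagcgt

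CCAAT was present in 4 of the 8 windows (*Acacb*, *Acss2*, *Fasn* and 1 start of *Me1*), beside 33.8% of 32851 promoters of the same length. *Fasn* has 3 matches, of which 2 overlap. GGGCGG was present in 3 windows (*Acly*, *Acss2* and the other start of *Me1*), beside 32.7% of all promoters, with 4 matches each in *Acly* and *Acss2*. The *Elovl6* window holds neither. Other elements were searched by their exact letters on both strands (N being any base), and none was found in the 8 windows. They were the sterol regulatory element, its core TCACNCCAC and the E-box CACGTG. The LXR element (AGGTCA repeated after 4 bases) and the carbohydrate response element (CACGTG repeated after 5 bases) came last. All promoters held the first 4 of these in 0.0731%, 1.05%, 6.02% and 0.0152% of cases, and the last in none. Such exact letters are thus uncommon in any promoter, and variant forms and bases outside the windows were not searched. The search therefore cannot show if these genes have or lack such sites.

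Values are log2 normalised signals, on which a difference of 1 is 2-fold, and are given as mean ± SD (n = 6 mice) or as the lowest, median and highest of the 6 mice. Differences between groups are log2 fold changes of a limma fit over all 48 arrays with their standard error (SE). The fit weights arrays, so they depart from differences of the group means, for the 8 genes by a median of 0.05 and by up to 0.24. A gene was called, and is said to have risen or fallen, where the fold change was above 1.5 and the adjusted p no more than 0.05. Signals are not compared between genes. The 12 comparisons and 6 interactions draw on the same 8 groups, so many of them share mice. On each array 50.1% to 57.4% of probes were well above background and no spot was saturated. The used probes of the 8 genes were well above background on all 48 arrays. The probe of the targeted gene *Pik3ca* (chr3:32364747-32364806, mm9) was higher in p110α hep-/- mice by 0.39 (limma adjusted p = 0.000419) and 0.58 (2.99e-07) on the log2 scale in fed mice on CTRL diet and HFD, while the differences in fasted mice were 0.08 (0.531) and 0.25 (0.0172), each under the fold change of 1.5. Its place relative to the deleted exons was not worked out here, so it does not check the deletion, and genotypes are those of the labels.

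Fed on HFD, every one of the 8 genes was lower without hepatocyte p110α. All 8 fell, beside 4.04% of the 20486 genes tested that fell, and in all 8 the mice of the genotypes did not overlap, as held for 13% of all genes. The median log2 fold change was -2.42, from -1.45 for *Acss2* to -3.22 for *Acacb*, while the median over all genes was 0.03. Within washing batches 1 and 2, with 3 mice per group, the median was -2.42 and -2.17. On CTRL diet 5 of 8 fell in fed mice (*Acly*, *Acss2*, *Acacb*, *Fasn* and *Me1*), beside 2.19% of all genes, with a median of -0.84 (-0.60 and -0.90 within the washing batches) and overlapping mice for each gene, where 6.21% of all genes had none. *Acaca* (-0.37, limma adjusted p = 0.0387), *Elovl6* (-0.29, limma adjusted p = 0.298) and *Scd1* (-0.57, limma adjusted p = 0.101) were not called there. The call of *Acaca* depended on the probe, since the median over its 6 kept probes was -0.73, past the fold change, and single probes ran from -0.26 to -0.74. Whole liver was measured, so fewer cells of a type and less RNA per cell cannot be told apart.

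**Figure D1:**
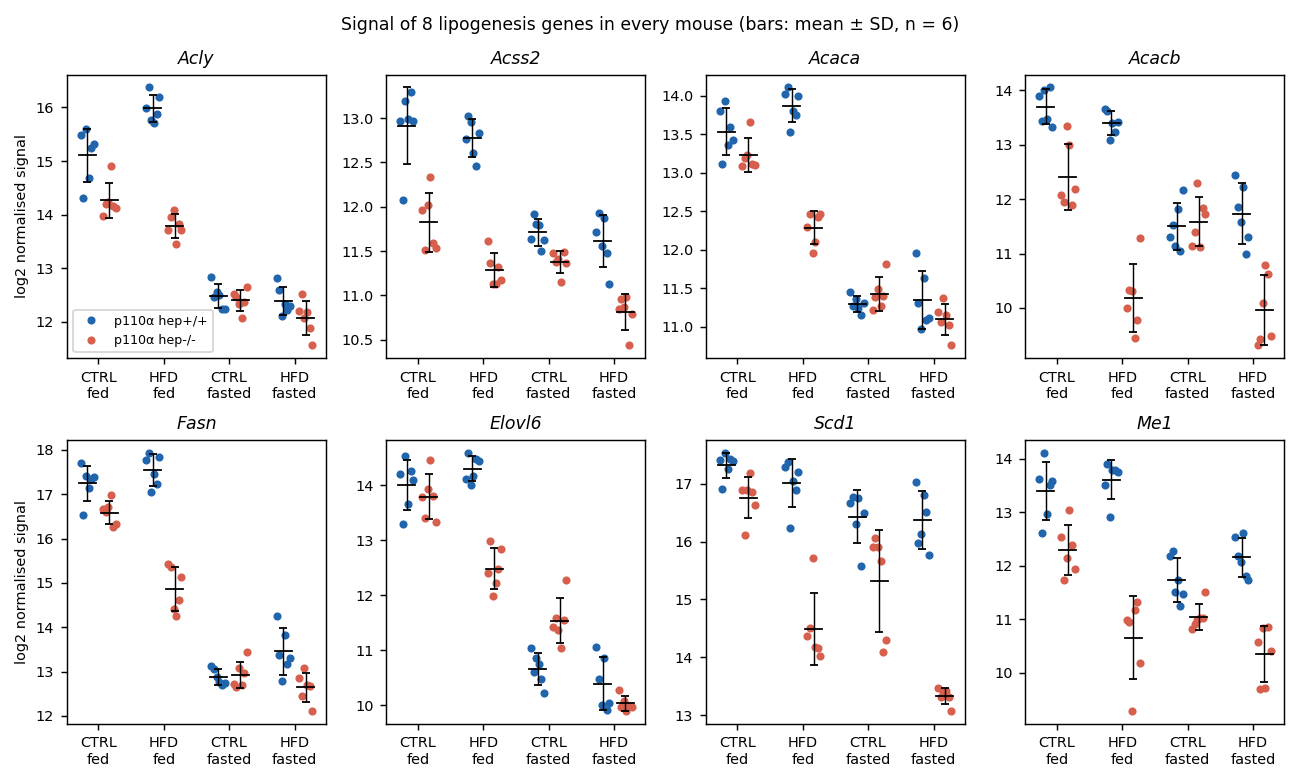
Each panel gives the log2 normalised signal of 1 gene (vertical axis) in fed and fasted mice on CTRL diet and HFD, with p110α hep+/+ mice in blue and p110α hep-/- mice in red. Points are mice and bars the mean ± SD of 6 mice. In fed mice on HFD the genotypes are apart in all 8 panels.

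Cytosolic acetyl-CoA is made by *Acly*, ATP citrate lyase, which splits citrate, and *Acss2*, which activates acetate. In fed mice on HFD, *Acly* (probe chr11:100337674-100337733, mm9, as are all probe positions) gave 15.70, 15.94 and 16.37 in p110α hep+/+ mice and 13.45, 13.77 and 14.08 in p110α hep-/- mice. The highest p110α hep-/- mouse was thus well below the lowest p110α hep+/+ mouse, and the fall was 4.61-fold (log2 -2.21, SE 0.16, limma adjusted p = 2.93e-14). On CTRL diet *Acly* gave 14.32, 15.28 and 15.59 against 13.98, 14.18 and 14.90, a fall of 1.94-fold (log2 -0.95, SE 0.16, limma adjusted p = 2.35e-05) with overlapping mice. *Acss2* (chr2:155388385-155388444) gave 12.46, 12.80 and 13.03 against 11.13, 11.24 and 11.61 in fed mice on HFD, a fall of 2.74-fold (log2 -1.45, SE 0.13, limma adjusted p = 1.99e-11). On CTRL diet it gave 12.08, 12.98 and 13.30 against 11.51, 11.77 and 12.33 and fell 2.20-fold (log2 -1.14, SE 0.13, limma adjusted p = 2.73e-08), the groups meeting only through the lowest p110α hep+/+ mouse.

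Acetyl-CoA carboxylase makes malonyl-CoA. *Acaca* encodes the cytosolic form that feeds fatty acid synthesis, and *Acacb* the form at the mitochondrial outer membrane, whose malonyl-CoA restrains fatty acid entry for oxidation. When mice were fed HFD, *Acaca* (chr11:84215093-84215152) gave 13.53, 13.90 and 14.11 in p110α hep+/+ and 11.97, 12.36 and 12.47 in p110α hep-/- mice, a fall of 2.90-fold (log2 -1.54, SE 0.13, limma adjusted p = 1.74e-12). *Acacb* (chr5:114700702-114700761) gave 13.09, 13.40 and 13.65 against 9.45, 10.15 and 11.28, a fall of 9.30-fold (log2 -3.22, SE 0.28, limma adjusted p = 3.08e-12), and on CTRL diet it fell 2.30-fold (log2 -1.20, SE 0.28, limma adjusted p = 0.00136). The SD of *Acacb* on HFD was 0.22 in fed p110α hep+/+ and 0.63 in fed p110α hep-/- mice. All values of *Acacb* rest on this 1 probe. With the median over its 3 kept probes the difference in fed mice on HFD was -0.19 (limma adjusted p = 0.222), and no call of *Acacb* that is given here remained. With the median over probes for every gene, 7 of 8 fell in fed mice on HFD, and 5 genes were called for the interaction of genotype and diet in fed mice.

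*Fasn*, fatty acid synthase (chr11:120668460-120668519), gave 17.05, 17.62 and 17.94 in fed p110α hep+/+ mice on HFD and 14.25, 14.88 and 15.42 in fed p110α hep-/- mice on HFD, a fall of 6.18-fold (log2 -2.63, SE 0.20, limma adjusted p = 6.71e-14). The fed p110α hep-/- mice lay between the fed p110α hep+/+ mice and the fasted p110α hep+/+ mice on HFD, which gave 12.78, 13.34 and 14.26 and overlapped them. *Elovl6* (chr3:129337756-129337815) elongates palmitate to stearate. It gave 14.00, 14.31 and 14.59 against 11.98, 12.44 and 12.98 in fed mice on HFD, a fall of 3.32-fold (log2 -1.73, SE 0.19, limma adjusted p = 1.72e-09). *Scd1*, stearoyl-CoA desaturase (chr19:44469387-44469446), which introduces a double bond into saturated fatty acids, gave 16.23, 17.13 and 17.37 against 14.01, 14.27 and 15.72, a fall of 6.40-fold (log2 -2.68, SE 0.25, limma adjusted p = 1.87e-11). The highest of these p110α hep-/- mice, replicate 3, stood apart from the next at 14.51.

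*Me1*, malic enzyme (chr9:86480571-86480630), supplies NADPH for fatty acid synthesis. In fed mice on HFD it gave 12.92, 13.77 and 13.90 in p110α hep+/+ and 9.30, 10.97 and 11.33 in p110α hep-/- mice, a fall of 7.08-fold (log2 -2.82, SE 0.24, limma adjusted p = 1.67e-12). The lowest *Me1* signal was in the same replicate 3 that had the highest *Scd1* signal, and its array had the lowest weight of the 48 (0.354). Without that array all 8 genes were still called. On CTRL diet *Me1* gave 12.60, 13.54 and 14.11 against 11.73, 12.27 and 13.04 and fell 2.33-fold (log2 -1.22, SE 0.24, limma adjusted p = 0.000174).

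**Figure D2:**
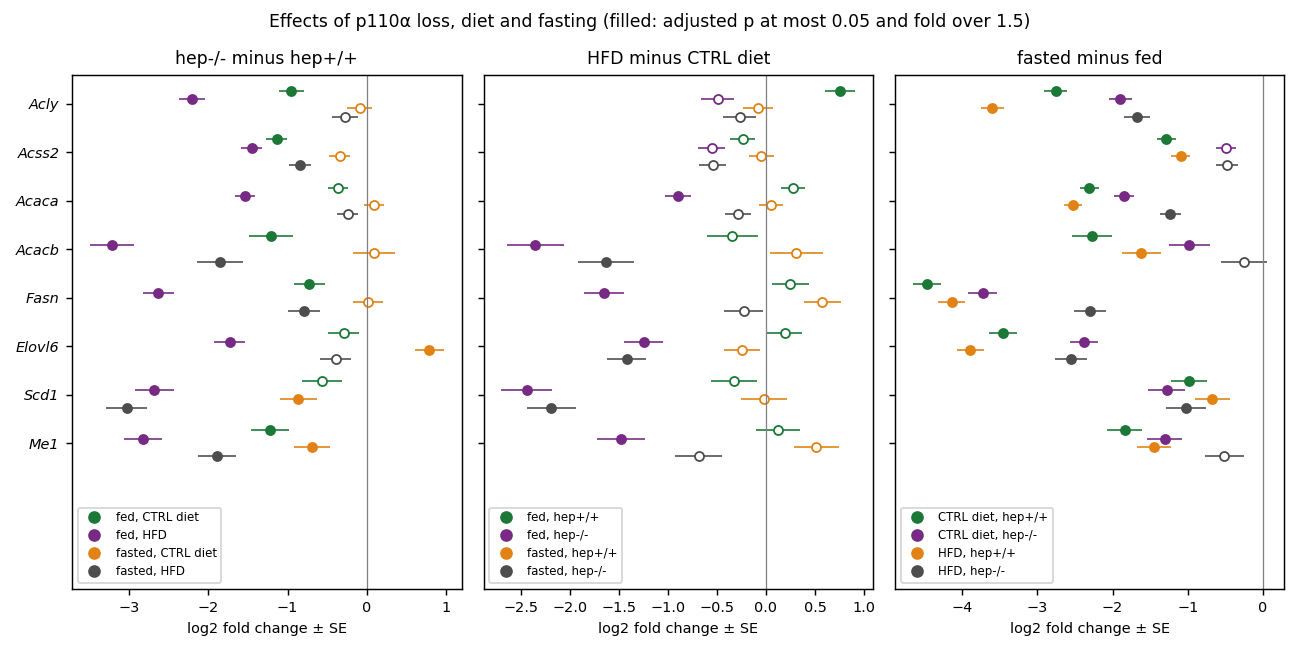
The panels give the log2 fold change ± SE (horizontal axes) of each gene for p110α hep-/- minus hep+/+, for HFD minus CTRL diet and for fasted minus fed, with 4 settings each by colour. Filled points passed an adjusted p of 0.05 and a fold change of 1.5. The differences between genotypes in fed mice on HFD run from -1.45 to -3.22, and all values for HFD in p110α hep-/- mice lie below 0.

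The genotype by diet interaction tests if the loss of p110α had another size on each diet. In fed mice it was called for 7 of 8 genes, each with a larger fall on HFD, beside 1.03% of all genes called in this direction, with a median of -1.52. *Scd1* had -2.11 (SE 0.35, limma adjusted p = 0.000336), *Fasn* -1.90 (SE 0.28, limma adjusted p = 6.33e-05) and *Me1* -1.61 (SE 0.33, limma adjusted p = 0.00519). *Acacb* (-2.01), *Elovl6* (-1.44), *Acly* (-1.25) and *Acaca* (-1.17) were called too. With the median over its probes *Acaca* had -0.57 (limma adjusted p = 0.0367) and was not called. *Acss2*, the acetate-activating enzyme, was not, with -0.32 (95% interval -0.70 to 0.07, limma adjusted p = 0.402). Within washing batch 1 the median was -1.71 and 7 genes were called. Within washing batch 2 it was -1.17 with all 8 values negative, and 0 were called by limma, 6 having an unadjusted p under 0.05.

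The diet itself moved the genes differently in each genotype. In fed p110α hep+/+ mice on HFD *Acly* rose and no other of the 8 was called (1 of 8, beside 3.76% of all genes in either direction), from 14.32, 15.28 and 15.59 to 15.70, 15.94 and 16.37, or 1.69-fold (log2 0.76, SE 0.15, limma adjusted p = 0.000257). With median scaling in place of quantile normalisation this was 0.55, under the fold change of 1.5, and within washing batches 1 and 2 it was 1.13 and 0.48. In fed p110α hep-/- mice HFD lowered 6 of 8, beside 1.03% of all genes that fell, and the mice of the diets did not overlap for these 6, as held for 3.9% of all genes. The log2 fold changes were -2.44 for *Scd1*, -2.36 for *Acacb*, -1.66 for *Fasn*, -1.48 for *Me1*, -1.25 for *Elovl6* and -0.90 for *Acaca*. The enzymes of acetyl-CoA supply, *Acly* (-0.49, limma adjusted p = 0.0485) and *Acss2* (-0.56, limma adjusted p = 0.00607), passed the adjusted p but not the fold change. The summed level of adipocyte markers in these mice was 10.32 to 10.88 on CTRL diet and 11.86 to 13.01 on HFD, without overlap, with *Cfd* (3.23) and *Fabp4* (2.06) raised, 2 of 5 kept markers, beside 1.29% of all genes that rose. In fed p110α hep+/+ mice it was 10.67 to 13.62 and 13.50 to 13.93, with the same 2 markers raised (1.78 and 1.38), beside 2.65% of all genes. The part of these cells in the diet results was not tested.

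In fasted p110α hep+/+ mice HFD changed 0 of 8 genes by limma, beside 2.81% of all genes, and 2 had an unadjusted p under 0.05. *Fasn* passed the adjusted p (log2 0.58, SE 0.19, limma adjusted p = 0.033) at 1.49-fold, and 1 gene was called when any of 6 single arrays was left out (fasted p110α hep+/+ mice, replicates 1 and 2 on CTRL diet and 2, 3, 5 and 6 on HFD). In fasted p110α hep-/- mice HFD lowered 3 of 8, beside 0.971% of all genes that fell. *Scd1* fell 4.56-fold, *Acacb* 3.09-fold and *Elovl6* 2.68-fold. The genotype by diet interaction in fasted mice was called for 4 of 8, *Acacb* (-1.94), *Elovl6* (-1.18), *Scd1* (-2.17) and *Me1* (-1.20), beside 1.31% of all genes in this direction. The *Me1* call ended when any of 6 single arrays was left out (fasted hep+/+ on CTRL diet replicates 3, 5 and 6, fasted hep+/+ on HFD replicates 1 and 4, fasted hep-/- on HFD replicate 2), with log2 -1.16 to -1.04, limma adjusted p 0.0504 to 0.0786. The medians within washing batches 1 and 2 were -1.11 and -0.86, with 0 genes called by limma in batch 1, where 5 had an unadjusted p under 0.05, and 1 in batch 2. In fasted p110α hep+/+ mice the summed level of adipocyte markers was 11.159 to 12.725 on CTRL diet and 13.064 to 15.275 on HFD, without overlap. Of 5 kept markers 2 rose, beside 2.81% of all genes called in either direction, with a median of -0.013. That of lymphocyte markers was 11.391 to 11.568 and 11.215 to 11.374. The part of these cells was not tested.

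Fasting lowered all 8 genes in p110α hep+/+ mice. On CTRL diet 8 of 8 fell, beside 2.52% of all genes, with a median of -2.29 and no overlap between fed and fasted mice, as held for 11.8% of all genes. On HFD 8 of 8 fell, beside 2.47% of all genes, with a median of -2.08, and fed and fasted mice did not overlap for 7 of them, all but *Scd1*, as held for 10.9% of all genes. *Fasn* fell most, 22.2-fold on CTRL diet, from 16.53, 17.37 and 17.70 to 12.69, 12.82 and 13.12 (log2 -4.47, SE 0.19, limma adjusted p = 5.31e-22), and 17.7-fold on HFD. *Elovl6* fell 11.0-fold and 14.9-fold, *Acly* 6.77-fold and 12.1-fold, and *Acaca* 4.96-fold and 5.79-fold. *Scd1* fell least, 1.98-fold on CTRL diet (log2 -0.98, SE 0.24, limma adjusted p = 0.00138) and 1.60-fold on HFD (limma adjusted p = 0.0253). The *Scd1* call on HFD ended when any of 6 single arrays was left out (fed hep+/+ on HFD replicates 1, 2 and 6, fasted hep+/+ on HFD replicates 2, 3 and 6), with log2 -0.63 to -0.57, limma adjusted p 0.0502 to 0.0904. It also ended with processed signal (-0.57, limma adjusted p = 0.0612), median scaling (-0.62, 0.0566), no filter on dim probes (-0.655, 0.0786) and no array weights (-0.637, 0.101). Within washing batch 2 it was -0.306 (limma adjusted p = 0.655).

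In p110α hep-/- mice fewer of the genes were called with fasting. On CTRL diet 7 of 8 fell, beside 3.43% of all genes, and *Acss2* passed the adjusted p alone (-0.50, limma adjusted p = 0.00302). The fall of *Acacb* there (-0.98, limma adjusted p = 0.00442) ended without replicate 3 of the fed p110α hep-/- mice on CTRL diet (log2 -0.70, adjusted p = 0.0574). On HFD 5 of 8 fell (*Acly*, *Acaca*, *Fasn*, *Elovl6* and *Scd1*), beside 3.14% of all genes, with a median of -1.13. *Acacb* had -0.25 (95% interval -0.86 to 0.36) and *Me1* -0.52 (95% interval -1.04 to 0.00). These were unsteady, at -0.42 to -0.02 and -0.66 to -0.35 when single arrays were left out, and within washing batches 1 and 2 they were 0.57 and -1.10 for *Acacb* and -1.19 and 0.31 for *Me1*. As a share of the log2 difference between fed and fasted p110α hep+/+ mice on HFD, that in p110α hep-/- mice was 44.0% for *Acss2*, 46.5% for *Acly*, 48.8% for *Acaca*, 55.6% for *Fasn* and 65.6% for *Elovl6*. No share is given for the other 3 genes, whose values moved between washing batches. *Acacb* and *Me1* had -1.62 and -1.45 in p110α hep+/+ mice, larger falls than in p110α hep-/- mice. *Scd1* went the other way over all mice, with -1.03 in p110α hep-/- mice against -0.68. It did so within washing batch 2 (-1.08 and -0.31) but not within batch 1 (-0.85 and -0.96).

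**Figure D3:**
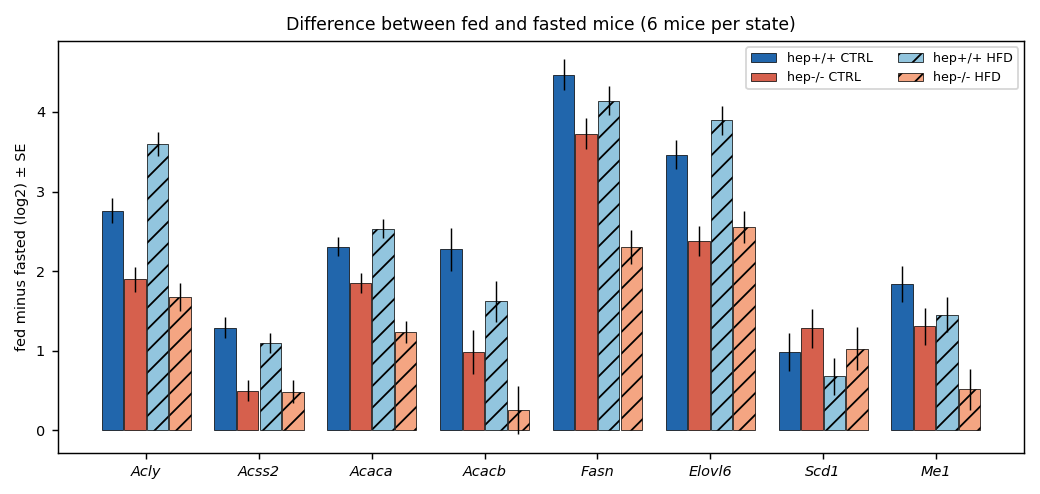
Bars give the log2 difference between fed and fasted mice (vertical axis from 0, ± SE) of each gene in p110α hep+/+ (blue shades) and p110α hep-/- (red shades) mice on CTRL diet (plain) and HFD (hatched), with 6 mice per state. On HFD the bar of p110α hep-/- mice is the shorter of the pair for 7 genes, and *Scd1* is the other.

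The difference in response was tested as the genotype by fasting interaction, where a positive value means a smaller fall without p110α. On HFD it was called for 5 of 8, all positive, beside 0.722% of all genes in this direction. *Acly* had 1.93 (SE 0.23, limma adjusted p = 9.26e-07), *Fasn* 1.84 (limma adjusted p = 6.15e-05), *Acaca* 1.30 (limma adjusted p = 1.98e-05) and *Elovl6* 1.34 (limma adjusted p = 0.00261). *Acacb* had 1.37 (limma adjusted p = 0.0456), a call that ended when any of 15 single arrays was left out (fed hep+/+ on HFD replicates 1, 2, 4 and 6, fed hep-/- on HFD replicates 1, 2, 4 and 5, fasted hep+/+ on HFD replicates 2, 3, 5 and 6, fasted hep-/- on HFD replicates 3, 4 and 5), with log2 1.20 to 1.42, limma adjusted p 0.0573 to 0.103, and with the washing batch as a block (1.35, limma adjusted p = 0.0555). The medians within washing batches 1 and 2 were 1.27 and 1.29, with 3 and 1 genes called.

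On CTRL diet the genotype by fasting interaction was called for 4 of 8, *Acly* (0.86), *Acss2* (0.79), *Acacb* (1.29) and *Elovl6* (1.08), beside 0.625% of all genes in this direction. Without replicate 3 of the fed p110α hep+/+ mice on CTRL diet 2 were called, and *Acly* had log2 0.75, adjusted p = 0.0549. *Acacb* ended when any of 16 single arrays was left out (fed hep+/+ on CTRL diet replicates 1, 3, 4 and 5, fed hep-/- on CTRL diet replicates 1, 2, 5 and 6, fasted hep+/+ on CTRL diet replicates 1, 2, 3 and 5, fasted hep-/- on CTRL diet replicates 2, 3, 5 and 6), with log2 1.11 to 1.32, limma adjusted p 0.0524 to 0.107, and with the washing batch as a block (1.31, limma adjusted p = 0.054). The medians within washing batches 1 and 2 were 0.49 and 0.89, with 0 genes called by limma in either batch, and 3 and 5 at an unadjusted p under 0.05.

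The diet by fasting interaction was called in p110α hep+/+ mice for *Acly* (-0.84, limma adjusted p = 0.0278), 1 of 8 beside 0.596% of all genes in this direction. That call ended when any of 4 single arrays was left out (fed hep+/+ on HFD replicates 2 and 6, fasted hep+/+ on CTRL diet replicate 3, fasted hep+/+ on HFD replicate 3), with log2 -0.82 to -0.76, limma adjusted p 0.0504 to 0.0696. In p110α hep-/- mice 2 of 8 were called, *Fasn* (1.43, limma adjusted p = 0.000947) and *Acaca* (0.61, limma adjusted p = 0.0383), beside 1.11% of all genes in this direction. With the median over its probes *Acaca* had 0.47 (limma adjusted p = 0.0691), and its call ended when any of 11 single arrays was left out (fed hep-/- on CTRL diet replicates 3 and 4, fed hep-/- on HFD replicates 1, 3 and 4, fasted hep-/- on CTRL diet replicates 1, 2 and 4, fasted hep-/- on HFD replicates 1, 2 and 3), with log2 0.53 to 0.63, limma adjusted p 0.0478 to 0.0875, and with slide as a block (0.55, limma adjusted p = 0.0659).

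The desaturase *Scd1* fell without p110α in both nutritional states on HFD. In fasted mice on HFD it gave 15.77, 16.33 and 17.03 in p110α hep+/+ and 13.07, 13.36 and 13.46 in p110α hep-/- mice, a fall of 8.17-fold (log2 -3.03, SE 0.25, limma adjusted p = 2.4e-12). Its genotype by fasting interaction was -0.35 on HFD (95% interval -1.07 to 0.36) and -0.30 on CTRL diet (95% interval -0.99 to 0.39), and neither passed the test (limma adjusted p = 0.69 and 0.697). In fasted mice on CTRL diet *Scd1* fell 1.82-fold (log2 -0.86, SE 0.24, limma adjusted p = 0.00599), where the group means, without weights, differed by -1.11. There 4 p110α hep-/- mice lay between 15.67 and 16.05, and replicates 5 and 6 were at 14.08 and 14.30. When only the arrays of the groups compared entered the fit, the adjusted p of this fall was 0.0648.

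In fasted mice on HFD, 5 of 8 genes fell without p110α, beside 4.22% of all genes. *Me1* gave 11.74, 12.13 and 12.62 in p110α hep+/+ and 9.70, 10.50 and 10.86 in p110α hep-/- mice, a fall of 3.70-fold (log2 -1.89, SE 0.24, limma adjusted p = 7.41e-08) with no overlap. *Acacb* fell 3.60-fold, *Acss2* 1.79-fold and *Fasn* 1.73-fold. *Acly* (-0.28, 95% interval -0.61 to 0.06), *Acaca* (-0.24, 95% interval -0.51 to 0.03) and *Elovl6* (-0.39, 95% interval -0.79 to 0.01) did not pass the test. The summed level of adipocyte markers was 13.06 to 15.28 in these p110α hep+/+ and 11.44 to 12.45 in these p110α hep-/- mice, without overlap. Of the 5 kept markers 1 fell, *Cfd*, beside 4.22% of all genes, and the median log2 fold change of the 5 was 0.04. The sum adds signals before the log2, so bright markers weigh most, and its part in the result was not tested. In fasted mice on CTRL diet 3 of 8 were called, beside 3.24% of all genes in either direction, and the elongase *Elovl6* rose. It gave 10.21, 10.68 and 11.04 in p110α hep+/+ and 11.04, 11.48 and 12.27 in p110α hep-/- mice, 1.73-fold higher (log2 0.79, SE 0.18, limma adjusted p = 0.0012), and the groups met at 11.04. The summed level of endothelial markers in these groups was 13.626 to 14.05 and 14.059 to 14.235, without overlap, with a median log2 fold change of 0.173 over the markers. Its part was not tested. *Me1* fell 1.61-fold (limma adjusted p = 0.0229), a call that ended when any of 4 single arrays was left out (fasted hep+/+ on CTRL diet replicates 1 and 2, fasted hep-/- on CTRL diet replicates 1 and 3), with log2 -0.67 to -0.58, limma adjusted p 0.0528 to 0.0706, and with slide as a block (-0.65, limma adjusted p = 0.0521).

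Over the 8 groups, all 8 genes had their lowest mean in fasted p110α hep-/- mice on HFD. The highest mean was in fed p110α hep+/+ mice on HFD for *Acly*, *Acaca*, *Fasn*, *Elovl6* and *Me1*, and in fed p110α hep+/+ mice on CTRL diet for *Acss2*, *Acacb* and *Scd1*, and these top 2 groups overlapped for every gene but *Acly*. From highest to lowest mean the span was 30.0-fold for *Fasn*, 19.3-fold for *Elovl6*, 15.9-fold for *Scd1*, 15.1-fold for *Acly*, 13.4-fold for *Acacb*, 9.55-fold for *Me1*, 6.83-fold for *Acaca* and 4.29-fold for *Acss2*. The rank of the mean of fed p110α hep-/- mice on HFD in this order differed between the genes. For *Acly*, *Acaca*, *Fasn* and *Elovl6* they ranked above all 4 fasted groups, and for *Acss2*, *Acacb*, *Scd1* and *Me1* they ranked below the other 3 fasted groups. Against fasted p110α hep+/+ mice on HFD, their mean differed by 2.09 for *Elovl6*, 1.40 for *Acly* and 0.94 for *Acaca*, and by -1.50 for *Me1* and -1.88 for *Scd1*, with no overlap for these 5. For *Fasn* (1.41), *Acacb* (-1.55) and *Acss2* (-0.33) the mice overlapped. Fed p110α hep-/- mice on HFD also overlapped fasted p110α hep-/- mice on CTRL diet for *Elovl6*, *Acss2*, *Acacb*, *Scd1* and *Me1*. For *Acacb* and *Me1* each group in the order overlapped with the next.

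Single mice often stood high or low in several of the genes, which were read on the same array. Replicate 2 of the fed p110α hep+/+ mice on CTRL diet was lowest of its group in 7 of 8 genes (mean deviation -0.62 from the group means), and replicate 4 of the fed p110α hep-/- mice on CTRL diet was highest in 7 (0.55). On HFD, replicate 2 of the fed p110α hep+/+ mice was highest in 7 (0.31) and replicate 3 lowest in 6 (-0.37). In fasted p110α hep+/+ mice, replicate 5 on CTRL diet was lowest in 7 (-0.35) and replicate 1 on HFD highest in 6 (0.54). Among fed p110α hep-/- mice on HFD no mouse was highest in more than 2 genes.

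Fed on HFD, all 21 kept probes were lower in p110α hep-/- mice, and 18 passed both limits. *Me1* had -2.82 and -3.07 from its pair of probes, *Acly* -2.21 and -1.75, and *Scd1* -2.68 and -2.69. The second *Scd1* probe (chr19:44471140-44471199) is annotated on the opposite strand, so its signal cannot be assigned to *Scd1* mRNA with certainty. The 6 *Acaca* probes ran from -0.79 to -1.54 and the 4 *Acss2* probes from -0.37 to -1.45. The probes of *Acacb* disagreed. The used probe, with a median raw signal of 3604, had -3.22, whereas the probe at chr5:114667674-114667733 (raw signal 168) had -0.19 (limma adjusted p = 0.235) and a probe between 114596822 and 114615564 of the same chromosome (raw signal 65) had -0.07 (limma adjusted p = 0.831). *Fasn* and *Elovl6* have 1 probe each.

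**Figure D4:**
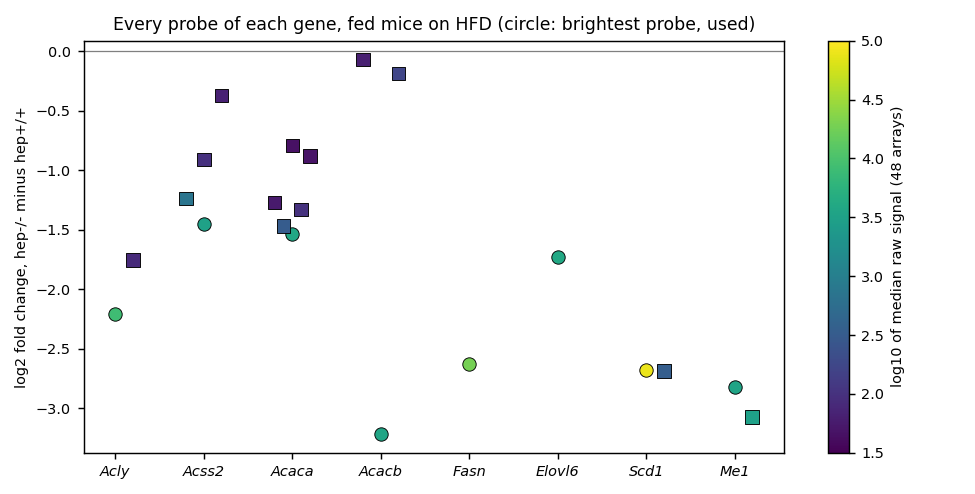
The log2 fold change of p110α hep-/- minus hep+/+ in fed mice on HFD (vertical axis) is given for the 21 kept probes of the 8 genes, coloured by the log10 of the median raw signal over 48 arrays. Circles are the brightest probes, which the results use, and squares the others. The squares of *Acacb* lie at -0.07 and -0.19 and its circle at -3.22.

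Genes around the pathway were read by lists. Of 14 genes that supply carbon or NADPH, 9 fell and 0 rose in fed mice on HFD without p110α, beside 4.04% of all genes that fell (median -0.76). They include *Aacs*, acetoacetyl-CoA synthetase (log2 -1.96, SE 0.21, limma adjusted p = 9.02e-10), and *Pklr*, the liver pyruvate kinase (log2 -1.45, SE 0.22, limma adjusted p = 1.95e-06). With fasting in p110α hep+/+ mice on CTRL diet, 8 of the 14 fell, beside 2.52% of all genes, with *Aacs* at -2.18 and *Pklr* at -2.15. The genotype by diet interaction in fed mice was called for 2 of the 14, beside 1.03% of all genes in this direction, with a median of -0.35.

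Of 17 regulators, 3 fell in fed mice on HFD without p110α, beside 4.04% of all genes, and the median was -0.07. These were *Thrsp* (Spot14, log2 -1.87, SE 0.32, limma adjusted p = 1.44e-05), *Mid1ip1*, which promotes polymerisation of acetyl-CoA carboxylase (log2 -1.02, SE 0.23, limma adjusted p = 0.000801), and *Insig2*, which retains SREBP in the endoplasmic reticulum (log2 -0.78, SE 0.18, limma adjusted p = 0.000961). *Srebf1*, the gene of SREBP1, had -0.43 (limma adjusted p = 0.114) and *Mlxipl*, the gene of ChREBP, -0.08 (limma adjusted p = 0.563), both named after their values were seen. On CTRL diet *Srebf1* fell in fed mice (log2 -0.70, SE 0.21, limma adjusted p = 0.0139). Fasting lowered 5 of the 17 in p110α hep+/+ mice on CTRL diet, beside 2.52% of all genes, with *Mid1ip1* at -3.84, *Srebf1* at -2.83 and *Thrsp* at -2.71. The genotype by diet interaction in fed mice was called for 0 of the 17 by limma, beside 1.34% of all genes in either direction, with 2 at an unadjusted p under 0.05.

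Of 13 genes that act on the products, 7 fell in fed mice on HFD, beside 4.04% of all genes (median -0.68), among them *Pnpla3*, a lipid droplet protein (log2 -3.45, SE 0.32, limma adjusted p = 2.38e-11), *Elovl5*, an elongase of polyunsaturated fatty acids (log2 -1.71, SE 0.18, limma adjusted p = 4.99e-10), and *Gpam*, the first acyltransferase of glycerolipid synthesis (log2 -1.60, SE 0.15, limma adjusted p = 5.04e-11). With fasting in p110α hep+/+ mice on CTRL diet 7 of the 13 fell, beside 2.52% of all genes, *Pnpla3* by most (-4.64) and *Fads1*, a fatty acid desaturase, at -1.16, while 2 rose, beside 2.93% of all genes that rose, including the phosphatidate phosphatase *Lpin2* (1.42). Of 10 kept relatives of the 8 genes (12 listed), 2 fell in fed mice on HFD, against the same 4.04% of all genes, *Scd3* (log2 -2.75, SE 0.27, limma adjusted p = 5.8e-11) and *Elovl7* (log2 -1.03, SE 0.13, limma adjusted p = 3.87e-08). *Scd3* is closely similar to *Scd1*, so its probe may also bind *Scd1* mRNA. With fasting in p110α hep+/+ mice on CTRL diet 2 of these 10 fell, *Scd3* (-1.60) and *Elovl1* (-0.86), beside 2.52% of all genes, and 1 rose, *Acss3* (0.68), beside 2.93%. In fed mice 2 of the 10 were called for the interaction of genotype and diet, *Scd3* (-1.98) and *Elovl7* (-0.84), beside 1.03% of all genes in this direction. Of 6 measured genes of mitochondrial fatty acid synthesis, a separate pathway, 0 were called in fed mice on HFD by limma, beside 6.24% of all genes in either direction. At an unadjusted p under 0.05 there were 4, and 4 passed the adjusted p and missed only the fold change, with log2 values between -0.35 and 0.38.

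**Figure D5:**
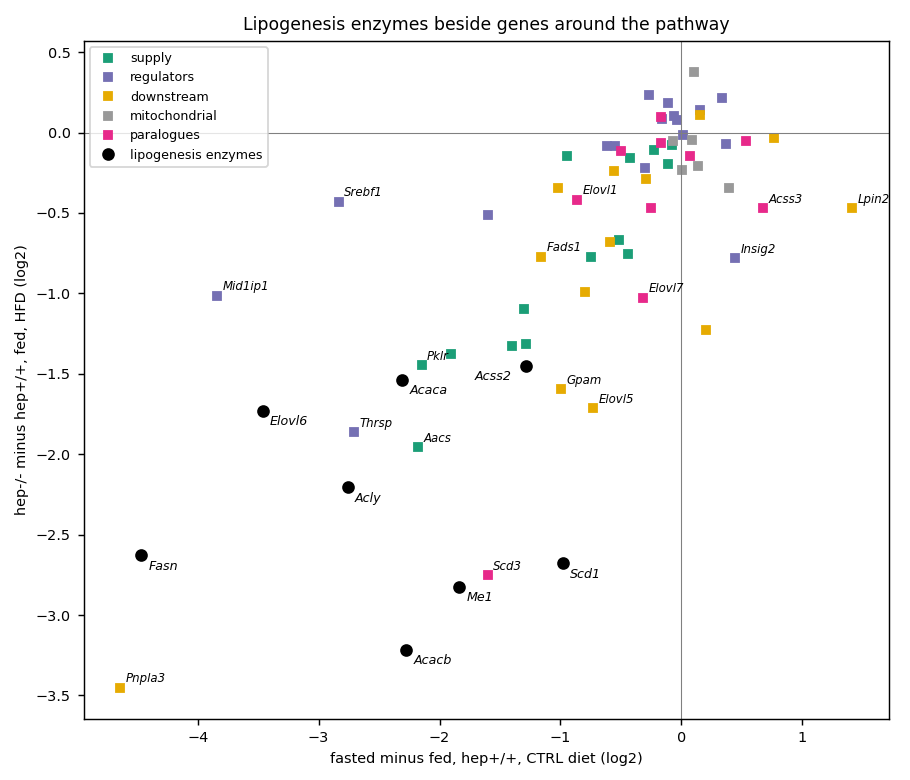
Each point is a gene, with its log2 difference between fasted and fed p110α hep+/+ mice on CTRL diet (horizontal axis) and between p110α hep-/- and hep+/+ mice, fed on HFD (vertical axis). Black circles are the 8 lipogenesis enzymes and coloured squares the genes of the 5 lists around the pathway. The circles lie between -1.45 and -3.22 on the vertical axis, and *Pnpla3* (-3.45) and *Scd3* (-2.75) are the lowest squares.

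All genes were ranked by how near their 8 group means, centred, came to the mean profile of the lipogenesis genes, as the root mean square (RMS) difference on the log2 scale. Of 20478 other genes *Pklr* was nearest (0.23), followed by *Hcn3* (0.28), which overlaps *Pklr* in the RefSeq annotation, *Rrm2* (0.36), *Atp2b2* (0.39) and *AA879870* (0.41). The 8 genes themselves were between 0.35 (*Acaca*) and 0.88 (*Fasn*) from their mean, a distance within which 236 other genes lay.

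Markers of the cells of the liver were read beside these results. The summed log2 level of 6 hepatocyte markers was 19.78 to 19.89 in fed p110α hep+/+ and 19.81 to 19.96 in fed p110α hep-/- mice on HFD, and 1 of them, *Cps1*, rose there (1.36), beside 2.2% of all genes that rose. Of 6 adipocyte markers 5 were kept and 1 fell in p110α hep-/- mice in all 4 comparisons, *Cfd*, with -5.56 and -4.11 in fed mice on CTRL diet and HFD and -5.45 and -5.17 in fasted mice. Of all genes 2.19%, 4.04%, 1.9% and 4.22% fell in these comparisons. *Adipoq* was well above background on 6 of 48 arrays and *Plin1* on 21. The summed level of adipocyte markers was 13.50 to 13.93 in fed p110α hep+/+ and 11.86 to 13.01 in fed p110α hep-/- mice on HFD, without overlap. The median log2 fold change of the 5 kept markers was 0.06 there, and the part of the summed level in the result was not tested. In the same comparison 1 of 5 stellate cell markers (*Col1a1*, -1.79), 1 of 5 endothelial markers (*Lyve1*, -0.82) and 1 of 4 bile duct markers (*Krt19*, -0.89) fell, beside 4.04% of all genes, and their part was not tested. The 6 Kupffer cell markers ran from -0.09 to 0.71 and the 3 kept lymphocyte markers from -0.53 to 0.36. In fed mice on CTRL diet the hepatocyte markers *Cps1* (0.68) and *Tat* (0.73) rose, and *Lrat* (-0.65), of stellate cells, and *Lyve1* (-1.13) fell, beside 1.53% of all genes that rose and 2.19% that fell.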

How the data were processed

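Liver RNA of 48 mice was measured on 1-colour Agilent SurePrint G3 Mouse GE 8x60K arrays labelled with Cy3, 1 array per mouse, on 6 slides, each with 1 array from every group, which went through 2 washing baths (batches) of 3 slides. The samples of a group are separate mice. Per the file headers, the deposited scanner files hold spot intensity from Agilent Feature Extraction 10.10.1.1, with flags (the other columns used) for background, saturation and outlier spots, and probe positions on mm9. A deposited table holds the log2 values of the authors, who filtered, log2 transformed, corrected for the washing batch and quantile normalised the median intensity and used limma. Its filter and the version of limma are not given in the sources used here, and it served as an alternative.

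Following those methods, control and outlier spots were left out, spots of a probe were averaged, and log2 median intensity was kept for probes well above background on at least 5 of 6 arrays of 1 or more groups (30793 of 56605 probes). The washing batch was removed with group means protected, arrays were quantile normalised, and limma 3.58.1 in R 4.3.3 (statmod 1.5.0) was fitted with arrayWeights and a mean for each of the 8 groups, with p-values adjusted by Benjamini-Hochberg over all kept probes. A gene was read by its brightest probe over the 48 arrays. The script was tested on simulated data. Precision is limited by the number of arrays.

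The 8 genes, the other gene lists, the cell markers and the tests were chosen with earlier results of these data known. Of each list around the pathway, the text names the 3 called genes with the largest change between genotypes in fed mice on HFD and with fasting in p110α hep+/+ mice on CTRL diet, the 5 genes nearest to the mean profile, and *Pik3ca*. A gene of the list of carbon and NADPH supply that this rule names is not reported here. Alternatives changed the signal, background correction, normalisation, filter, batch and slide terms, weights, samples in the fit, choice of probe and threshold, or left out 1 array.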

Additional observations from a re-analysis of the deposited data

Results flagged for a closer look

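Within groups of 6 mice, 7 of the 64 sets of values (8 genes in 8 groups) had 1 mouse whose gap to the next exceeded Dixon's 95% limit as a share of the group's range, which chance passes in about 1 in 20 groups. *Acly* in replicate 4 of the fed p110α hep-/- mice on CTRL diet was the highest of its group at 14.902, with the next mouse at 14.228 and a gap of 0.73 of the range. *Acss2* in replicate 2 of the fed p110α hep+/+ mice on CTRL diet was the lowest of its group at 12.082, with the next mouse at 12.968 and a gap of 0.728 of the range. *Acss2* in replicate 4 of the fasted p110α hep-/- mice on CTRL diet was the lowest of its group at 11.154, with the next mouse at 11.361 and a gap of 0.625 of the range. *Acss2* in replicate 5 of the fasted p110α hep-/- mice on HFD was the lowest of its group at 10.436, with the next mouse at 10.79 and a gap of 0.646 of the range. *Acaca* in replicate 4 of the fed p110α hep-/- mice on CTRL diet was the highest of its group at 13.665, with the next mouse at 13.233 and a gap of 0.755 of the range. *Scd1* in replicate 3 of the fed p110α hep-/- mice on HFD was the highest of its group at 15.716, with the next mouse at 14.511 and a gap of 0.708 of the range. *Me1* in replicate 6 of the fasted p110α hep-/- mice on CTRL diet was the highest of its group at 11.515, with the next mouse at 11.03 and a gap of 0.7 of the range.

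The effects of genotype, diet or fasting differed between groups for 23 values by limma's interaction terms, given as log2 values with adjusted p. The genotype by diet interaction in fed mice was -1.252 for *Acly* (adjusted p = 0.00102), -1.172 for *Acaca* (adjusted p = 0.000129), -2.013 for *Acacb* (adjusted p = 0.00227), -1.903 for *Fasn* (adjusted p = 6.33e-05), -1.437 for *Elovl6* (adjusted p = 0.00144), -2.114 for *Scd1* (adjusted p = 0.000336) and -1.605 for *Me1* (adjusted p = 0.00519). In fasted mice the genotype by diet interaction was -1.939 for *Acacb* (adjusted p = 0.00284), -1.179 for *Elovl6* (adjusted p = 0.00762), -2.167 for *Scd1* (adjusted p = 0.000297) and -1.200 for *Me1* (adjusted p = 0.029). The genotype by fasting interaction on CTRL diet was 0.863 for *Acly* (adjusted p = 0.0199), 0.792 for *Acss2* (adjusted p = 0.0101), 1.293 for *Acacb* (adjusted p = 0.0473) and 1.083 for *Elovl6* (adjusted p = 0.0136). On HFD the genotype by fasting interaction was 1.927 for *Acly* (adjusted p = 9.26e-07), 1.296 for *Acaca* (adjusted p = 1.98e-05), 1.367 for *Acacb* (adjusted p = 0.0456), 1.841 for *Fasn* (adjusted p = 6.15e-05) and 1.341 for *Elovl6* (adjusted p = 0.00261). The diet by fasting interaction in p110α hep+/+ mice was -0.842 for *Acly* (adjusted p = 0.0278). In p110α hep-/- mice the diet by fasting interaction was 0.614 for *Acaca* (adjusted p = 0.0383) and 1.427 for *Fasn* (adjusted p = 0.000947).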

How the results depend on the processing

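The 17 alternatives other than leaving out 1 array include fits within a washing batch and on the compared groups only, which used fewer arrays. Over these 17, 270 of 306 counts of called genes stayed within 1.5 times the count reported. Of 2448 single values 2277 kept direction and call, 110 lost the call, 22 gained it, 35 changed sign without a call and 4 reversed. The 4 are *Acacb* by the median over its probes: 0.106 (p110α hep-/- minus hep+/+, fasted, HFD), 0.047 (HFD minus CTRL diet, fasted p110α hep-/-), 0.342 (genotype by diet, fasted) and -0.06 (genotype by fasting, CTRL diet). The diet by fasting interaction in p110α hep+/+ mice had 0 called genes by limma with median scaling, without the filter, without washing correction, within either washing batch, with the arrays of the compared groups only and at a fold change over 2, and 1 to 2 genes at an unadjusted p under 0.05 there. In p110α hep-/- mice it had 1 with processed signal, median scaling, no filter, no washing correction, a slide block, the median over probes and a fold change over 2, and 0 within washing batch 2 (3 at an unadjusted p under 0.05). HFD minus CTRL diet had 0 in fed p110α hep+/+ mice with median scaling, within washing batch 2 and at a fold change over 2 (3, 1 and 2 at an unadjusted p under 0.05), 1 in fasted p110α hep+/+ mice with normexp and by adjusted p alone, and 5 in fasted p110α hep-/- mice with median scaling. The genotype by fasting interaction on CTRL diet had 2 without the filter, without weights and at a fold change over 2, and 0 within either washing batch. On HFD it had 3 and 1 within washing batches 1 and 2. The genotype by diet interaction had 0 in fed mice within washing batch 2, and 0 and 1 in fasted mice within batches 1 and 2. The loss of p110α called 3 genes in fed mice on CTRL diet within washing batch 1 and at a fold change over 2, 1 in fasted mice on CTRL diet within washing batch 2 and 0 at a fold change over 2 (4 at an unadjusted p under 0.05), and 3 in fasted mice on HFD at a fold change over 2. Batches hold fewer samples, and otherwise the cause was not tested.

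Leaving out 1 array at a time, the loss of p110α called 5 to 5 genes (fed, CTRL diet), 8 to 8 (fed, HFD), 2 to 3 (fasted, CTRL diet) and 5 to 5 (fasted, HFD). HFD called 1 to 1 and 6 to 7 in fed, and 0 to 1 and 3 to 4 in fasted p110α hep+/+ and hep-/- mice. Fasting called 8 to 8 and 6 to 7 on CTRL diet, and 7 to 8 and 5 to 5 on HFD. The interactions called 7 to 7 and 3 to 5 (genotype by diet, fed and fasted), 2 to 4 and 4 to 6 (genotype by fasting, CTRL diet and HFD), and 0 to 1 and 1 to 2 (diet by fasting, p110α hep+/+ and hep-/-). Of 168 pairs of arrays with the same replicate number, 39 had deviations from group means correlated over 0.1 (median 0.012). Among 840 pairs with other numbers there were 170 (median -0.004). The labels do not say if the numbers pair mice, and weak correlations cannot exclude it. With the number as a replicate block, the genotype by fasting interaction called 3 genes on CTRL diet and 4 on HFD, *Acacb* being lost (1.37, limma adjusted p = 0.0509, and 1.30, limma adjusted p = 0.078), and the other counts were those reported. The deposited log2 values gave counts within 1.5 times those reported in all 18 comparisons.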
